A study of Mus musculus with 30 samples.

Results

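Kpnb1, Mtor, Stat3 and Ranbp1 are mRNAs that have been placed in the sensory axon as carriers of the injury signal. They were followed here through RNA recovered with 2 RNA-binding proteins, nucleolin and PTBP1, from mouse sciatic nerve. Every transcript whose deposited gene name was one of these 4 was taken, which gave 6 of the 20423 transcripts listed in the 4 deposited count tables. The nerves were either naive or had been crushed 7 days earlier, and their axoplasm, a detergent-free extract cleared by centrifugation, was pooled from 10 nerves for each sample. Part of the extract was sequenced as input. The rest went to immunoprecipitation (IP) with an antibody against nucleolin or PTBP1, and a blocked IP, in which the antibody had first met its own blocking peptide, gave the background. These steps made 10 groups of 3 libraries, 30 in all: input, nucleolin IP, blocked nucleolin IP, PTBP1 IP and blocked PTBP1 IP, each from naive and from injured nerve. No genotype, transgene or drug treatment distinguished them, all 10 groups share the axoplasm preparation, and the labels used here give no strain, sex or age. The design text calls the 3 samples of a group independent biological repeats.

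As background, Kpnb1 encodes importin beta 1, the carrier that brings cargo through nuclear pores. In axons a local pool of this mRNA is translated after a lesion, and the new protein joins importin alpha and dynein to carry signals back to the cell body. Ranbp1 encodes a Ran-binding protein that, with the GTPase-activating protein RanGAP, releases Ran from importins, and it too is made locally after a lesion. Stat3 encodes a transcription factor phosphorylated downstream of gp130 cytokine receptors and carried back along this route. Mtor encodes the kinase that sets the rate of local translation, and its own mRNA is localized in axons. Nucleolin is known to bind the 3′ untranslated region (UTR) of Kpnb1 mRNA and to link it to kinesin. PTBP1 binds pyrimidine-rich RNA and is best known as a splicing repressor.

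The letters that PTBP1 reads are short runs of T and C. The richest 30-base stretch of each 3′ UTR is therefore shown, in mRNA sense, with every TCTT or CTTT in capitals. Where stretches tied, the first was taken. For Mtor only 4 bases of the stretch lie in such words, so it is merely the first among ties. Coordinates are on GRCm38, and the sequences are those of the GENCODE M21 transcripts.

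Kpnb1: cacCTTTaTCTTctgaataaagtccgCTTT

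Mtor: ggaaaaccacgtcgtctcctcccaggCTTT

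Ranbp1: tcactctgTCTTTttcCTTTcCTTTTCTTT

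Stat3: tagCTTTgCTTTcatTCTTgcacctTCTTT

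These stretches lie at chr11:97159729-97159758 on the minus strand for Kpnb1, chr4:148556870-148556899 on the plus strand for Mtor, chr16:18240056-18240085 on the minus strand for Ranbp1 and chr11:100885451-100885480 on the minus strand for Stat3, all in the 3′ UTR. Matches of TCTT and CTTT, which overlap in TCTTT and were each counted, were searched on the mRNA strand only. Ranbp1 was the densest, with 13 matches in a 3′ UTR of 303 bases, or 42.9 per kb. Of the 11669 3′ UTRs of at least 100 bases among the listed coding transcripts, 0.309% held as many per kb, and their median was 13.9 per kb. Mtor stood near the other end, with 2 matches in 823 bases (2.43 per kb), and 97.1% of 3′ UTRs held at least that many. Kpnb1 had 39 in 2967 bases (13.1 per kb) and Stat3 43 in 3701 bases (11.6 per kb), both near the median. TCCCGA, the nucleolin recognition element as a DNA word, also read on the mRNA strand, occurred in 8.91% of all these 3′ UTRs and in none of the 4. A match or its absence describes these letters and does not mark a binding site.

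The files count reads per transcript, not per gene. Kpnb1-201 is the protein-coding transcript of Kpnb1 (chr11:97159714-97187881, minus strand, 22 exons, 5894 bases) and was listed for all 30 libraries. Mtor-202 (chr4:148448611-148557683, plus strand, 58 exons, 8564 bases) and Ranbp1-202 (chr16:18239784-18248732, minus strand, 6 exons, 1085 bases) were also listed for all 30. The coding Stat3-202 (chr11:100885098-100939404, minus strand, 24 exons, 6042 bases) was listed for 24 libraries and was not in the table of naive nucleolin libraries. Stat3-208 (chr11:100894490-100898528) and Mtor-204 (chr4:148544413-148547788) are annotated as retained introns, forms that keep an intron and are not coding. The first was listed for 18 libraries and the second for the 6 naive nucleolin libraries. Stat3 has 14 annotated transcripts, Mtor 4, Ranbp1 4 and Kpnb1 3, so a low count of 1 transcript need not be a low level of its gene, and the sources used here do not say how reads shared between forms were assigned.

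Libraries held between 7536033 and 22919174 counts over the transcripts listed for them, and the tables had been filtered before deposit. Library 3 stood apart in each IP and each blocked IP group, with fewer transcripts at 0 than libraries 1 and 2. The extract held RNA of many cells: the summed level of 9 listed Schwann cell and myelin markers was 29960 to 57010 CPM (counts per 1000000, after scaling between libraries) in naive input and 5240 to 8433 in injured input. Macrophage markers summed to 1196 to 2351 and 8073 to 10450 CPM, and dividing-cell markers to 53.2 to 75.8 and 731 to 872 CPM. Axon and sensory neuron markers were scarce, at 158 to 257 CPM in naive and 125 to 194 CPM in injured input over 8 listed genes, and Nefh, Prph, Scn9a and Isl1 were not listed. In bulk extracts, fewer cells of a type and less RNA per cell cannot be told apart.

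Kpnb1 was by far the most abundant of the 4, and the steadiest. In naive input it stood at 293.5, 294.2 and 284.8 CPM, and in injured input at 335.1, 342.6 and 380.5 CPM. Every injured library was thus above every naive one. Per kb of transcript, the level in naive input was 49.4 ± 0.888 CPM per kb for Kpnb1, 8.54 ± 1.81 for Ranbp1, 4.32 ± 0.405 for Mtor and 0.179 ± 0.0542 for Stat3-202 (SD, n = 3).

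In the PTBP1 IP, Kpnb1 was at 251.8, 148.6 and 259.6 CPM in naive and 240.1, 215.6 and 256.7 CPM in injured nerve. The blocked PTBP1 IP held 211, 163.1 and 295.5 CPM of it in naive and 173.9, 223.9 and 283.9 CPM in injured nerve. IP and blocked libraries lay over the same range in both conditions, so the scaled level of the transcript was in the same range with the antibody blocked. In the nucleolin IP it was at 188.7, 304.9 and 247.2 CPM in naive and 225.9, 255.2 and 293.5 CPM in injured nerve. The blocked nucleolin IP held 405, 267.3 and 275.9 CPM in naive and 155.7, 210.4 and 263.8 CPM in injured nerve. Naive blocked library 1, at 405 CPM, was the highest of all 30, and the groups overlapped again. The group means ran from 353 ± 24.4 CPM in injured input to 210 ± 54.1 CPM in injured blocked nucleolin IP. No 2 neighbours in the order of the 10 means differed by more than the larger of their SDs, but sorting keeps neighbours close. Groups further apart did differ by more, such as these ends, or injured input against naive input (291 ± 5.24 CPM).

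Over all 30 libraries Kpnb1 spanned 2.7-fold, against 17.8-fold for Mtor and 24.2-fold for Ranbp1. Its SD within groups, on the scale of log2(CPM + 0.5), was 0.31. Among 618 transcripts of similar mean level the median was 0.66, and 98.7% had a larger SD. Mtor had a within-group SD of 0.93, exceeded by 78.2% of 1704 transcripts of its level, and Ranbp1 0.99, exceeded by 84.5% of 1326.

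**Figure D1:**
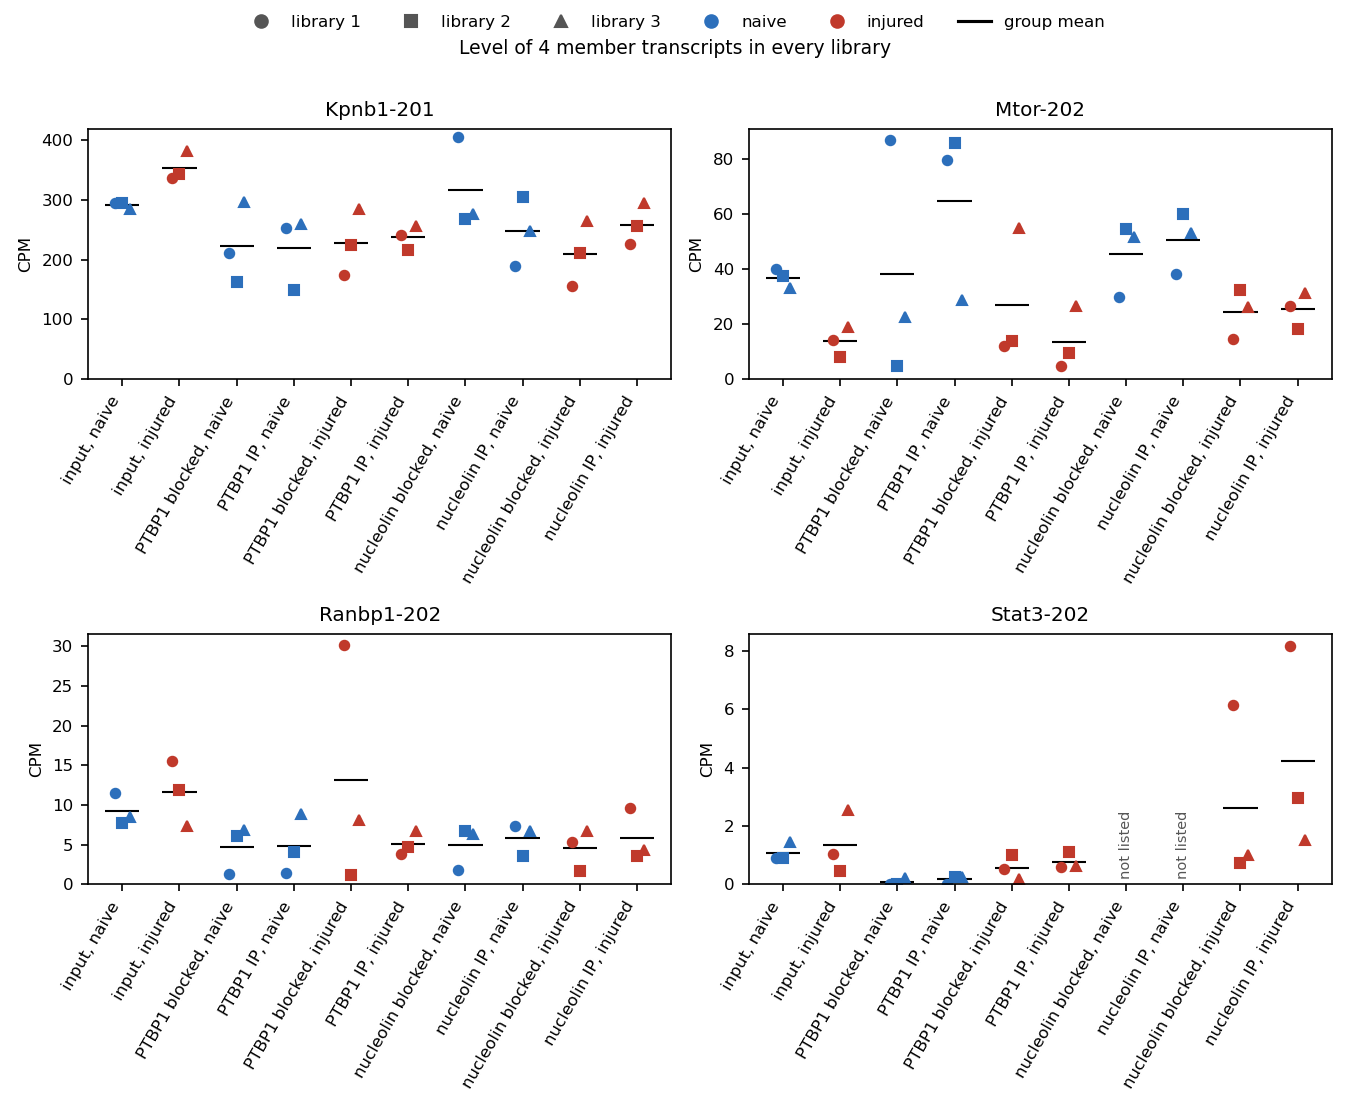
Level in CPM (y axis, from 0) of the main listed transcript of each gene in every library, by group (x axis); each point is 1 library, its shape the library number, blue naive and red injured, and the black line is the group mean. Kpnb1 stayed between 148.6 and 405 CPM, Mtor was lower in injured than in naive input, and the IP points lie over the range of the blocked points for these 3 genes listed everywhere.

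**Figure D2:**
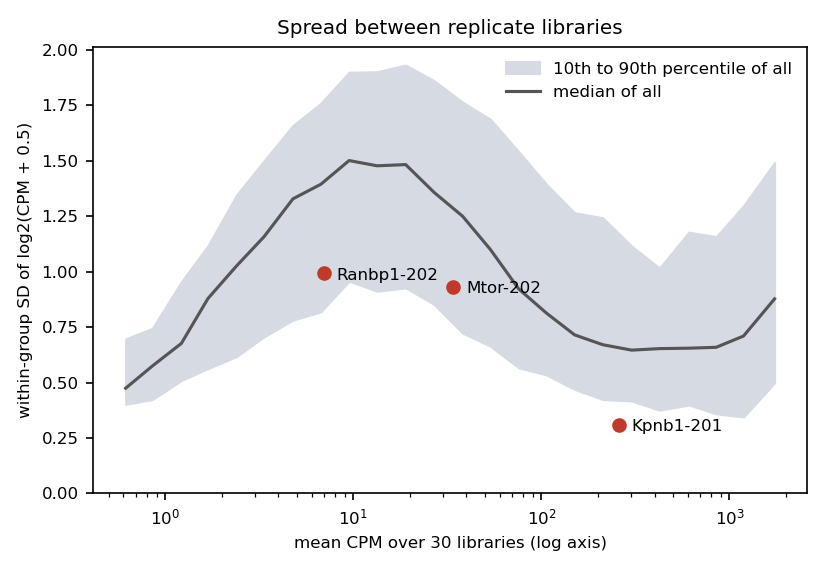
Within-group SD of log2(CPM + 0.5) (y axis) against mean CPM over 30 libraries (x axis, log scale) for the 3 member transcripts listed in all libraries (red), with the median (line) and the 10th to 90th percentile (shaded) of the 10232 transcripts listed in all tables. Kpnb1 lies below the shaded band at its level, and Mtor and Ranbp1 lie below the median.

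Mtor was the only member called in input, where it fell with injury. Its level in input was 40.1, 37.6 and 33.2 CPM in naive and 14.5, 8.18 and 18.9 CPM in injured nerve, and the groups did not overlap. The fall was -1.45 on the log2 scale (SE 0.36), a level 0.365 times the naive one with a 95% interval of 0.213 to 0.623. The adjusted p was 0.00923 (edgeR, quasi-likelihood, Benjamini-Hochberg over the 14095 transcripts tested). As many as 13.4% of those transcripts were called lower and 21.9% were lower without overlap, so the direction and the call are common ones in this comparison. Over 12 other settings the change ran from -1.74 to -1.20 and the adjusted p from 3.43e-04 to 0.0418. In the authors' deposited table the change was -1.56, with an FDR of 0.000268. Markers of Schwann cells fell in the same libraries (8 of 9 tested, with 1 that rose), as did those of adipocytes (4 of 4) and fibroblasts (3 of 6), while macrophage markers (8 of 12) and dividing-cell markers (8 of 9) rose; the part of these shifts in the fall of Mtor was not tested. Of 8 axon and sensory neuron markers 1 rose and 1 fell.

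Kpnb1, Ranbp1 and Stat3 did not pass the test in input. For Kpnb1 the log2 fold change was 0.24 (SE 0.20, adjusted p = 0.41), a ratio of 1.18 with an interval of 0.876 to 1.59. Its groups did not overlap, and neither did those of 22.5% of transcripts that were higher. Scaled to library totals in place of TMM, the change was -0.02, so its direction rests on the scaling.

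Ranbp1 stood at 11.5, 7.78 and 8.53 CPM in naive and 15.6, 11.9 and 7.33 CPM in injured input, from 59 to 164 counts a library. The groups overlapped, and the log2 fold change was 0.29 (SE 0.44, adjusted p = 0.672). Stat3-202 was near the lower end of what was listed, with 12, 16 and 28 counts in naive and 4, 5 and 38 counts in injured input. Its log2 fold change of 0.29 (SE 0.76, adjusted p = 0.81) had a ratio interval of 0.393 to 3.82, which holds both lower and higher levels. Without injured library 3 the estimate was -0.67.

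The pathways around the members were described from lists of genes, each gene by its most abundant tested transcript. Of all transcripts tested in input, 14.4% were called higher and 13.4% lower after injury. All transcripts of the input table had 5 counts or more in injured inputs 2 and 3, so a gene near 0 after injury was not listed, while a gene near 0 in naive nerve could be. Of 25 tested genes of importins, the Ran cycle and dynein, 4 rose and 2 fell in injured input, with a median log2 fold change of 0.24 against 0.0017 over all transcripts. Nup50, a nucleoporin that helps to release importin cargo, rose from 34.9 ± 6.11 to 105 ± 23.8 CPM (SD, n = 3), Ipo7 from 10.8 ± 4.38 to 29.9 ± 4.31 CPM and Ipo5, another importin of the beta family, from 78.3 ± 14.4 to 191 ± 37.2 CPM. The dynein light chains Dynlrb1 (63.9 ± 25.8 to 11.2 ± 4.05 CPM) and Dynll1 (271 ± 30.3 to 151 ± 25.7 CPM) fell. Ran itself stood at 3.08 ± 3.12 CPM in naive and 3.44 ± 3.14 CPM in injured input for its listed transcript (SD, n = 3), and its adjusted p was 0.942 by edgeR. Scaled to library totals, Nup50, Ipo5, Ipo7 and Dynll1 were no longer called (adjusted p 0.0546, 0.176, 0.179 and 0.0844), and neither was Ipo7 without injured library 2.

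Of 30 tested mTOR pathway genes 7 fell, Mtor included, and 1 rose, and the median was -0.21. Rragb, a Rag GTPase that brings the kinase complex to the lysosome, fell from 10.6 ± 1.43 to 1.11 ± 0.391 CPM. Pik3r1, a regulatory subunit of PI3 kinase, fell from 20.0 ± 14.0 to 4.85 ± 1.74 CPM, although its libraries overlapped, and Rheb, the GTPase that activates mTOR, also passed the test (-1.43 on the log2 scale, adjusted p = 0.0196). The other genes of this list that fell were Ddit4 (-1.27, adjusted p = 0.0118 by edgeR), Ulk1 (-1.14, adjusted p = 0.041) and Deptor (-1.01, adjusted p = 0.00481). Deptor is an inhibitor of mTOR, so the genes that fell do not all act in 1 direction on the kinase. Lamtor3, a subunit of the lysosomal Ragulator complex, rose from 91.8 ± 7.69 to 168 ± 8.43 CPM. Lamtor3 lost its call with library totals or without naive library 2, Rheb without injured library 2 or naive library 3, and Pik3r1 without injured library 2 or naive library 1 or 2. Ulk1 lost its call with library totals or without injured library 2 or naive library 1 or 2. Ddit4 and Deptor were called in all 12 settings. Rictor, a defining subunit of the other mTOR complex, mTORC2, was at 0.23 on the log2 scale (adjusted p = 0.529).

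Of the 27 tested genes of the gp130, JAK and STAT3 list 11 rose and 2 fell, with a median of 0.69. Of these 27, 5 had under 5 counts in at least 1 naive input, namely Osm, Il10, Il10ra, Cish and Il11. They were listed through the injured libraries, so the rises of the first 3 are descriptions. Among the other 22, a comparison added after the data had been seen, 8 rose and 2 fell, with a median of 0.44. The largest rises among these 22 were of Il21r (7.89 ± 3.19 to 80.5 ± 24.4 CPM) and Junb (18.1 ± 4.34 to 171.6 ± 35.65 CPM). The cytokine Osm, which signals through gp130, stood at 0.214 ± 0.139 CPM in naive and 16.9 ± 5.87 CPM in injured input. Il10, an anti-inflammatory cytokine that signals through STAT3, had 1 count over the naive and 95 over the injured libraries, and its receptor Il10ra rose from 0.433 ± 0.353 to 5.64 ± 2.65 CPM. The receptor Lifr (262 ± 56.4 to 121 ± 7.06 CPM) and its ligand Ctf1 (10.0 ± 3.83 to 1.66 ± 0.849 CPM) fell. Socs3, a feedback inhibitor that STAT3 induces, rose by 1.45 (adjusted p = 0.0127), and the shared receptor subunit Il6st was at 0.50 (adjusted p = 0.137). Socs3 was not called with library totals (adjusted p = 0.196), without injured library 1 or without naive library 2, and Il6st was called without naive library 3 (adjusted p = 0.046). Macrophage markers rose in the same libraries, as given above, and their part in these cytokine changes was not tested. Among 20 tested genes for other carriers of axonal injury signals, 5 rose and 1 fell, with a median of 0.25. The retained-intron transcript Nfkb1-204 rose from 8.38 ± 1.95 to 37.9 ± 4.08 CPM, the injury-induced factors Atf3 from 32.9 ± 6.15 to 105 ± 15.2 CPM and Atf4 from 330.5 ± 45.5 to 999 ± 333 CPM, and Vim, which encodes the filament vimentin, fell from 3982 ± 1383 to 1970 ± 959 CPM. Vim was not called with library totals or without injured library 1 or 2 or naive library 3, and Atf4 not with library totals (adjusted p = 0.0809).

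**Figure D3:**
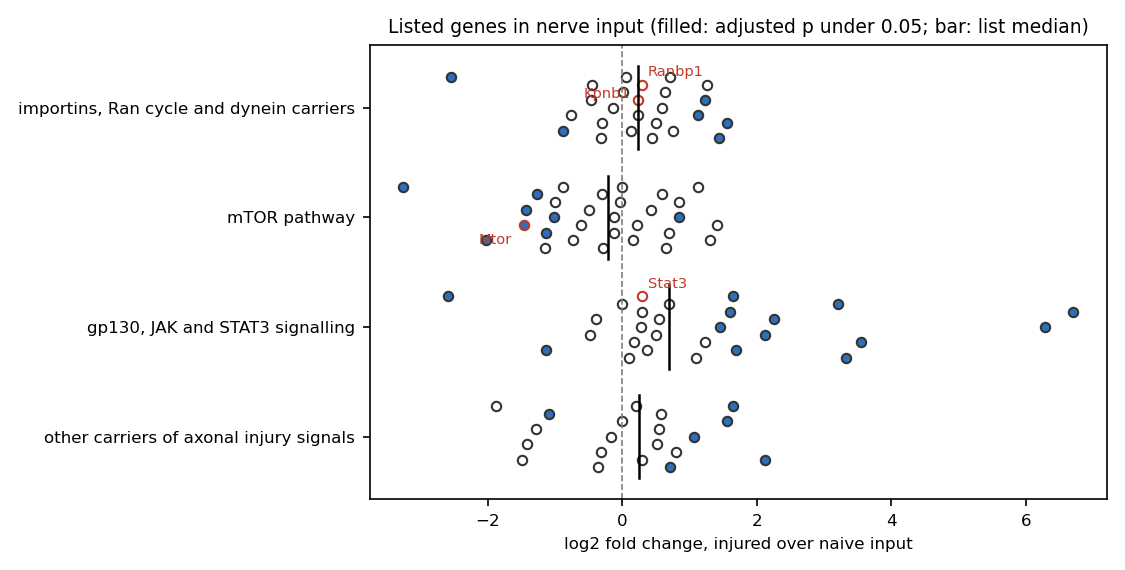
Log2 fold change of injured over naive input (x axis) for each tested gene of the 4 lists (y axis; the vertical offset within a list carries no value); filled points had an adjusted p under 0.05, red outlines mark Kpnb1, Mtor, Stat3 and Ranbp1, and black bars are list medians. Of the 4 outlined genes only Mtor is filled. The gp130, JAK and STAT3 list has 11 filled points to the right of 0, of which 3 (Osm, Il10 and Il10ra) were listed through the injured libraries. Of all transcripts tested, 14.4% were called higher.

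The PTBP1 IP against its blocked IP asked whether these mRNAs had a higher scaled level with PTBP1 than in the background. No member passed the test in naive or in injured nerve, nor did any of the 14540 transcripts tested (0%), although 1893 in naive and 1815 in injured nerve had an unadjusted p under 0.05 by edgeR. DESeq2 called 1099 and 902 transcripts, and no member among them. Kpnb1 had a ratio of IP to blocked IP of 0.933 in naive nerve, with a 95% interval of 0.421 to 2.07, and of 0.971 in injured nerve, with an interval of 0.438 to 2.15. As relative levels, enrichments above 2.15-fold lie outside both intervals, and smaller ones lie within at least 1 of them. These ratios are of levels scaled between libraries. A difference in the total RNA recovered by IP and blocked IP would not show in them, here or for nucleolin.

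Mtor in the PTBP1 IP stood at 79.8, 85.9 and 29.0 CPM in naive nerve, while its blocked libraries ran from 87.0 to 4.98 and 22.6 CPM. The blocked group alone therefore spanned 17.5-fold. The log2 fold change was 0.71 (SE 1.18, adjusted p = 0.906). In injured nerve Mtor was at 4.88, 9.72 and 26.8 CPM in the IP and 12.3, 14.0 and 54.9 CPM in the blocked IP, which gave -1.03 on the log2 scale (SE 1.19, adjusted p = 0.867). Without blocked library 3 it was 0.20.

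Ranbp1, with the densest pyrimidine words of the 4, was at 1.40, 4.15 and 8.81 CPM in the naive PTBP1 IP and 1.28, 6.06 and 6.90 CPM in its blocked IP. In injured nerve the IP held 3.81, 4.74 and 6.70 CPM and the blocked IP 30.1, 1.24 and 8.07 CPM. Both pairs of groups overlapped. The ratios were 0.961 (interval 0.0951 to 9.71) in naive and 0.376 (interval 0.0356 to 3.98) in injured nerve, and both intervals hold enrichment as well as loss.

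The Stat3 forms are given apart and were not tested against each other. The coding Stat3-202 had 0, 3 and 6 counts in the naive PTBP1 IP and 0, 0 and 5 in its blocked IP, then 5, 9 and 15 counts in the injured IP and 6, 9 and 4 in its blocked IP. The groups overlapped in both conditions, and only the injured IP held at least 5 in all its libraries. The retained-intron Stat3-208 had 94, 34 and 21 counts in the injured PTBP1 IP and 2, 0 and 4 counts in the blocked IP, without overlap. Its fitted log2 fold change was 5.14 (SE 2.64, adjusted p = 0.471), and 16.6% of transcripts were higher in that IP without overlap. A transcript entered this table when some group had 5 counts or more in each of its libraries, and Stat3-208 met this only in the injured IP, so it was listed through the group in which it was high and the difference cannot be read as support. Transcripts at 0 made up 1.64% to 7.26% of those listed in the injured IP libraries and 16.9% to 28.7% in its blocked libraries. In naive nerve the same form had 0, 0 and 89 counts in the IP and 138, 0 and 7 in the blocked IP, for -0.99 (SE 2.21, adjusted p = 0.936). Single libraries thus held most of its naive counts in both groups. The difference between injured and naive enrichment was 6.13 (SE 3.38, adjusted p = 0.736). No transcript of 14540 passed that interaction test (0%), with 1147 at an unadjusted p under 0.05 by edgeR and 415 called by DESeq2. For the other members the interaction gave 0.06 (SE 0.76) for Kpnb1, -1.74 (SE 1.68) for Mtor and -1.35 (SE 2.22) for Ranbp1, each with an adjusted p of at least 0.952.

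The nucleolin IP against its blocked IP put the same question for nucleolin. Again no member passed, and edgeR called 0% of 11840 transcripts in either condition, with 1422 in naive and 769 in injured nerve at an unadjusted p under 0.05. DESeq2 called 761 and 314 transcripts, none of them a member. For Kpnb1 the log2 fold change was -0.40 (SE 0.35, adjusted p = 0.701) in naive and 0.30 (SE 0.35, adjusted p = 0.998) in injured nerve. The signs differed, and the difference between them was 0.70 (SE 0.49), a ratio of 1.62 with an interval of 0.778 to 3.39 and an adjusted p of 1. This sign held in 19 alternative settings, with values of 0.49 to 0.91, none of them called. Across transcripts that interaction had 302 at an unadjusted p under 0.05 by edgeR, 0% called, and 20 called by DESeq2.

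Mtor in the naive nucleolin IP stood at 38.3, 60.3 and 53.2 CPM, and its blocked IP held 30.1, 54.6 and 51.9 CPM. In injured nerve the IP held 26.6, 18.5 and 31.4 CPM and the blocked IP 14.6, 32.4 and 26.4 CPM. IP and blocked libraries overlapped in both conditions. The ratios were 1.07 (interval 0.487 to 2.37) and 1.04 (interval 0.473 to 2.31). Ranbp1 was at 7.30, 3.53 and 6.68 CPM in the naive nucleolin IP against 1.83, 6.75 and 6.30 CPM in the blocked IP, and at 9.61, 3.62 and 4.36 against 5.38, 1.70 and 6.79 CPM in injured nerve. Its log2 fold changes were 0.18 (SE 0.96, adjusted p = 0.96) and 0.35 (SE 0.96, adjusted p = 0.998).

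The remaining forms could be tested only among the 6 libraries of 1 table. Stat3-202 had 118, 44 and 28 counts in the injured nucleolin IP and 148, 15 and 20 in the blocked IP, for 0.72 (SE 1.24, adjusted p = 0.941). Library 1 held most of the counts in both groups. Stat3-208 had 11, 54 and 21 counts against 0, 3 and 13 (2.82, SE 1.51, adjusted p = 0.757). The retained-intron Mtor-204 had 184, 34 and 14 counts in the naive nucleolin IP and 0, 2 and 16 in its blocked IP (4.36, SE 1.89, adjusted p = 0.558). For both retained-intron forms the IP libraries lay above the blocked ones without overlap in CPM, but the margins were narrow: the lowest IP library was at 0.761 CPM and the highest blocked one at 0.653 CPM for Stat3-208, and at 0.850 and 0.720 CPM for Mtor-204. Among the 14936 injured and 13480 naive transcripts tested, 13.2% in each table were higher in the IP without overlap, and 0% were called. Both forms again met the minimum of 5 counts only in the IP group, which is how they came to be listed, so these differences too are descriptions.

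**Figure D4:**
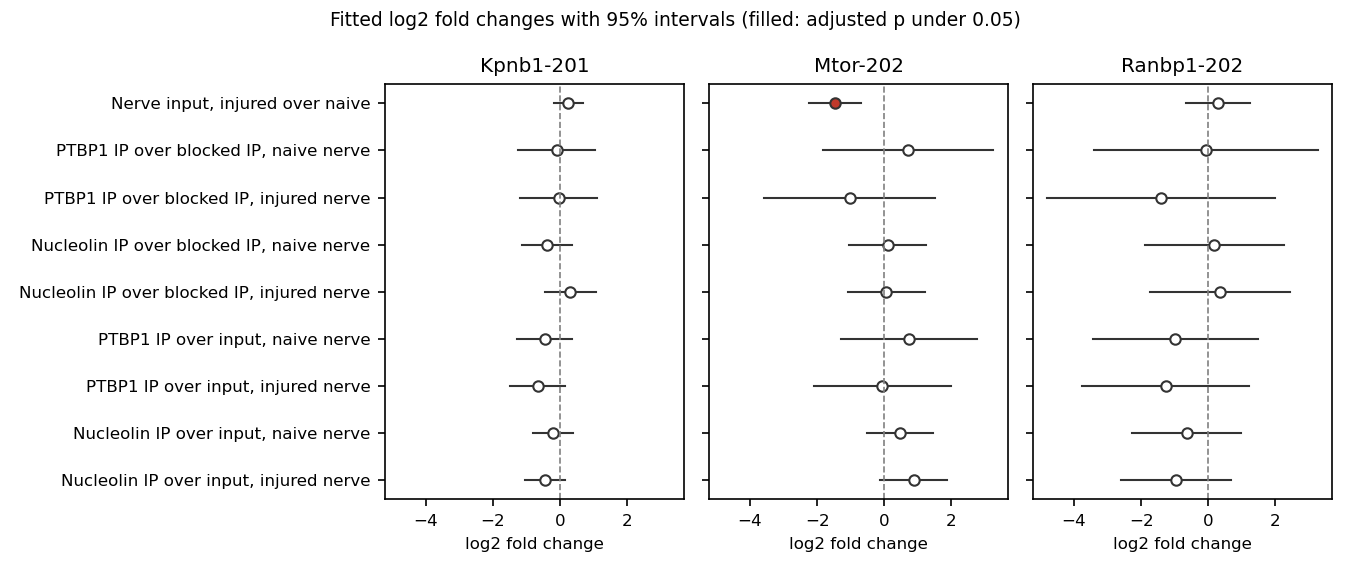
Fitted log2 fold change (x axis) with its 95% interval (bars) for Kpnb1, Mtor and Ranbp1 in 9 comparisons (y axis); a filled point had an adjusted p under 0.05. Only the fall of Mtor in injured input (-1.45) is filled, and the intervals of the IP comparisons are narrowest for Kpnb1.

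Recovery was also set against input, which shows how an IP library differs from the extract and does not separate bound RNA from background. In naive nerve 0.218% of 12393 transcripts differed between PTBP1 IP and input, and 1.02% in injured nerve. For nucleolin the shares were 1.06% and 0.404% of 10891 transcripts, or 115 and 44. Same-numbered libraries deviated together in the injured nucleolin comparison, and with the replicate block its count was 393, and 295 in naive nerve. No member was among them. Kpnb1 was below input by all 4 fitted values: -0.46 (SE 0.39) and -0.67 (SE 0.39) with PTBP1 in naive and injured nerve, -0.22 (SE 0.28) and -0.45 (SE 0.28) with nucleolin, with adjusted p-values of 0.501 to 0.905. Its libraries did not overlap with input in naive and injured PTBP1 IP and in injured nucleolin IP, where 13.3%, 17.0% and 15.5% of transcripts were lower without overlap. Scaled to library totals, the injured nucleolin value was 0.07. Mtor was at 0.74 and -0.05 with PTBP1 and 0.47 and 0.88 with nucleolin (SE 0.47 to 0.97, adjusted p 0.407 to 1). Ranbp1 was at -0.98 and -1.27 with PTBP1 and -0.65 and -0.98 with nucleolin (SE 0.77 to 1.18, adjusted p 0.621 to 0.96). Its libraries did not overlap with input in the injured PTBP1 IP and the naive nucleolin IP, where 17.0% and 11.4% of transcripts were lower without overlap. Stat3-202 was below input in the naive PTBP1 IP without overlap, at -2.59 (SE 1.21, adjusted p = 0.657), as were 13.3% of transcripts. That IP held only 0, 3 and 6 counts of it, and it was listed for PTBP1 through the injured IP alone. In the injured PTBP1 IP it was at -0.91 (SE 1.14, adjusted p = 1). Elsewhere in the lists, Deptor, an mTOR inhibitor, was higher than input in the injured PTBP1 IP (4.54, SE 1.06, adjusted p = 0.0475), and Ncl, the mRNA of nucleolin itself, in the naive nucleolin IP (2.97, SE 0.67, adjusted p = 0.0381). Either call was lost when any of the 6 libraries compared other than IP library 3 was left out, with adjusted p-values of up to 0.269 and 0.246.

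Because Mtor fell in input, its injured and naive levels were compared within each kind of IP library as well, a comparison added after the data had been seen. It was lower after injury in all 4 by the fitted values: -2.24 (SE 1.23, adjusted p = 0.558) in the PTBP1 IP, -0.50 (SE 1.18, adjusted p = 0.86) in the blocked PTBP1 IP, -0.92 (SE 0.53, adjusted p = 0.531) in the nucleolin IP and -0.88 (SE 0.53, adjusted p = 0.367) in the blocked nucleolin IP. None passed the test. The groups did not overlap in the PTBP1 IP and the nucleolin IP, where 13.8% and 14.0% of transcripts were lower without overlap. The calls in these comparisons were 0.00688% and 0.0275% of transcripts for PTBP1 IP and blocked IP, and 0.828% and 1.55% for nucleolin. None of these comparisons shares a library with input, but input was part of the material that went into the IPs, and the labels do not say which libraries came from 1 pool. Without naive blocked library 1, the blocked PTBP1 value was 0.97. Kpnb1 was at -0.01, -0.07, 0.13 and -0.57 in the same order (SE 0.35 to 0.54, adjusted p 0.373 to 0.995). In the blocked nucleolin IP its injured libraries (155.7 to 263.8 CPM) lay below the naive ones (267.3 to 405 CPM). They also did so when these 6 libraries were scaled alone, as did 12.3% of transcripts, but not on the scale of the 12-library fit. The interaction of 0.70 for Kpnb1 is the nucleolin IP value of 0.13 less the blocked value of -0.57. Stat3-202 was higher in the injured than in the naive PTBP1 IP without overlap (1.91, SE 1.43, adjusted p = 0.691), as were 15.4% of transcripts, but it too was listed in that table through the injured IP alone.

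The 3 members listed everywhere did not follow each other. Over 30 libraries the Pearson correlation of log2(CPM + 0.5) was 0.09 between Kpnb1 and Mtor, 0.07 between Kpnb1 and Ranbp1 and -0.26 between Mtor and Ranbp1. Among the 7265 transcripts whose mean level reached 10 CPM, those most like Kpnb1 were of 3830403N18Rik (0.85), Bmp2k (0.77) and Cdkn2aipnl (0.74). Those most like Mtor were of Clstn2 (0.83), Lypd6b (0.78) and Amigo2 (0.77), and those most like Ranbp1 were of Zfp959 (0.78), Pmf1 (0.77) and Ebpl (0.74). The libraries share depth, antibody and condition, so these values are descriptions.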

How the data were processed

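RNA of 30 libraries, 3 in each of 10 groups set by the sample titles, was analysed. The authors deposited whole-number read counts per transcript, filtered before deposit (in the PTBP1 and nucleolin tables, at least 5 counts in all libraries of a group; in the input table, in injured inputs 2 and 3). Reads came from CASAVA 1.8.2, and edgeR and the mm10 and GRCm38 builds are named, per the submitters' processing notes; on the aligner, counter, annotation and strand the sources used here give nothing. The deposited log2 fold changes and FDR, which are adjusted p-values, were copied for comparison only, and 84 other columns of per-sample values were not used. Blocked library 3 of naive nucleolin and PTBP1 has PCP in its column name and was matched by condition, protein and number. Transcript names, positions and 3′ UTRs came from GENCODE M21, which held 97.8% of the transcripts.

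Tests used edgeR 4.0.16 under R 4.3.3 (quasi-likelihood test, TMM scaling, filterByExpr, no replicate block, two-sided, Benjamini-Hochberg over all transcripts, threshold 0.05), in 1 fit of the 6 inputs, 1 of the 12 libraries of each antibody and 1 of each 12 with the inputs (18). All listed members passed the filter on low counts in the fits they enter. The p-values measure the spread between libraries of a group, each from a pool of 10 nerves. Pool, IP and library preparation are not told apart in that spread. Printed CPM levels share 1 TMM scale, set on the 10232 transcripts listed for all 30 libraries. Totals were 7536033 to 22919174 counts, and replicates were far from identical (chi-square of at least 55.9 per degree of freedom). Scripts were tested on simulated data. DESeq2 1.42.0, other scalings, no filter, a replicate block, gene sums and left-out libraries were alternatives. Numbers were taken to pair the samples where deviations of same-numbered libraries correlated above 0.1 for all 3 numbers. Only injured nucleolin IP against input met this rule, at 0.116, 0.158 and 0.159. Elsewhere at least 1 number did not pass 0.1, but single numbers reached higher values. In nucleolin IP, injured over naive, numbers 1, 2 and 3 were at 0.2802, 0.0975 and 0.495. The highest value between different numbers there was 0.1105, for number 2. Pairing was not tested beyond this rule. The members, gene lists and rules were chosen with earlier results of these data known. Named list genes are up to 3 called in each direction with the largest change. Ran, Rheb, Rictor, Socs3, Il6st, Ddit4, Deptor, Ulk1, Il21r and Junb were added after their values were seen. Marker lists not named in the text were those of repair Schwann cells, endothelium and nuclear RNA, of which 1 of 5, 1 of 5 and 2 of 4 tested rose in input and 0, 1 and 1 fell.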

Additional observations from a re-analysis of the deposited data

How the results depend on the processing

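The call for Mtor in input held in all 12 alternatives run. Each of 53 member results was recomputed under 12 to 19 settings, 752 values in all. In at least 1 of its settings 26 took another sign, all of them differences called under neither setting, and 0 were called only under an alternative. The counts of all transcripts called moved more; the cause was not tested. In input, library totals gave 2327 calls (36.4% higher, against 51.9%, with the median transcript at -0.26), and leaving out 1 library 2514 to 3821. Against blocked IP, where edgeR called 0, DESeq2 called 1099, 902 and 415 (PTBP1 naive, injured, interaction) and 761, 314 and 20 (nucleolin). Library totals gave 39 for naive nucleolin. Without the libraries numbered 3, an alternative chosen after seeing the data, the counts were 56 and 6 (PTBP1) and 116 and 50 (nucleolin). Leaving out 1 library gave 0 to 4 (injured PTBP1), 0 to 320 (naive nucleolin, 320 without blocked library 3 and 135 without IP library 3), 0 to 15 (injured nucleolin) and 0 to 5 (its interaction). Against input, PTBP1 naive and injured gave 399 and 669 with DESeq2, 1 and 197 with RLE, 81 injured with totals and 0 and 877 with only the libraries compared, and nucleolin 596 and 717, 253 injured with totals, and 305 and 1069. Leaving out 1 library gave 0 to 209 and 0 to 372 (PTBP1), and 0 to 581 and 0 to 431 (nucleolin). With the replicate block the counts were 42 and 161 (PTBP1) and 295 and 393 (nucleolin), against 27, 127, 115 and 44 without it, and the block changed no call among the 53 member results. Stat3-202 in input rests on 4 to 38 counts a library.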
